A study of Mus musculus with 2 samples.

Results

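The integrated stress response was followed through 8 genes in mouse bone marrow cultures that were exposed to heme: Atf4, Atf3, Ddit3, Ddit4, Trib3, Chac1, Asns and Sesn2. The genes were listed by name as members of the ATF4 pathway, with no measured value in the rule, and all 8 were present among the 26124 genes of both matrices. Lineage-depleted progenitors of C57BL/6 mice, aged 8 to 10 weeks, had been cultured with 20 ng/ml GM-CSF, a growth factor that leads progenitors towards granulocytes, macrophages and dendritic cells. On day 3 the cultures received 300 µM heme-albumin (the heme group) or albumin alone (the control group). Each group was 1 single-cell library that pooled 5 cultures, and antibody-bound DNA hashtags named for days 0, 3, 4, 5 and 7 assign each cell to its culture. The comparison asks how the members of this pathway differ between heme and control cultures, with the day 3 cultures of both libraries as the background before heme.

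In the integrated stress response, kinases that sense heme shortage, viral RNA, misfolded protein in the endoplasmic reticulum or amino acid shortage phosphorylate the translation factor eIF2 on its alpha subunit. General translation then falls, while the mRNA of the transcription factor ATF4 is translated better, so that much of the regulation of ATF4 takes place at the level of protein and is not seen in mRNA counts. ATF4 in turn activates genes of amino acid supply, redox balance, growth restraint and cell death. In the erythroid lineage the kinase HRI, encoded by Eif2ak1, links heme supply to globin synthesis.

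The control library held 198754588 UMIs (unique molecular identifiers, each standing for 1 captured transcript) in 13961 barcodes, and the heme library 333481636 UMIs in 17378 barcodes. The cells retained, 9263 control and 9699 heme cells, had 1 hashtag, 500 to 5000 genes, and shares of mitochondrial and ribosomal protein UMIs under 15% and 30%. Summed over its cells, a culture held between 2456429 UMIs (control, day 0) and 32885616 UMIs (control, day 7). How many mice went into a culture is not given in the sources used here. The day 0 control culture kept 366 of 1716 cells, because 74.4% of its cells exceeded the ribosomal limit, so its values are the least precise. The limit of 5000 genes removed more heme than control cells, 33.9% against 8.34% on day 3 and 16.4% against 6.62% on day 4. Both libraries shared 112 barcode sequences, and leaving these cells out moved no value beyond its interval.

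Levels are given as CPM, the UMIs of a gene per 1000000 UMIs of the culture, and a ratio is the heme level divided by the control level of the same day. With 1 library per group there was no replicate, so no test of heme was possible and the effect of heme cannot be told apart from that of the library. The exact 95% intervals cover counting error only. In such sums, fewer cells of a type and less RNA per cell cannot be told apart.

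By their median the 8 genes lay near genes in general among the kept cells, while single members went in both directions. On day 7 the interval of the ratio lay above 1 for Atf4, Atf3, Trib3 and Asns and below 1 for Sesn2 and Ddit3. How many genes in general had such intervals was not counted. Relative to the median of all genes with at least 20 UMIs, these members stood at 0.35, 0.54, 0.44, 0.0019, -1.04 and -0.65, in that order (log2). The median log2 ratio of the 8 members was 0.41 on day 3, before heme, 0.34 on day 4, 0.16 on day 5 and 0.31 on day 7. The median of all genes with at least 20 UMIs was above 0 as well, at 0.31, 0.28, 0.25 and 0.27 on the same days, and 5 of the 8 members lay above it on days 3, 4 and 7 and 3 of 8 on day 5. A level at least 2-fold higher with heme was reached by 0 of 8 members on day 3, against 8.03% of 12608 genes, by 0 of 8 on day 4, against 9.65% of 12512, by 1 of 8 on day 5 (Atf3), against 9.10% of 12510, and by 0 of 8 on day 7, against 14.4% of 12839. A level at least 2-fold lower was reached by 0 of 8 members on each of these days, against 0.523%, 2.92%, 3.75% and 7.26% of genes in the same order. The count for day 5 rests on the scaling, since it was 0 of 8 with TMM factors, with DESeq2 size factors and without ribosomal protein and mitochondrial UMIs. The filter on cells weighed on these counts as well. Without the upper limit on genes, and with the other limits kept, 2 of 8 members (Atf3 and Trib3) were at least 2-fold higher on day 4 and on day 5, and 1 of 8 (Atf3) on day 7. The day 4 median of the 8 members was then 0.61, beside 0.36 for all genes. The share of all genes past 2-fold was counted only with that limit in place. The counts of members without it therefore have no background beside them.

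**Figure D1:**
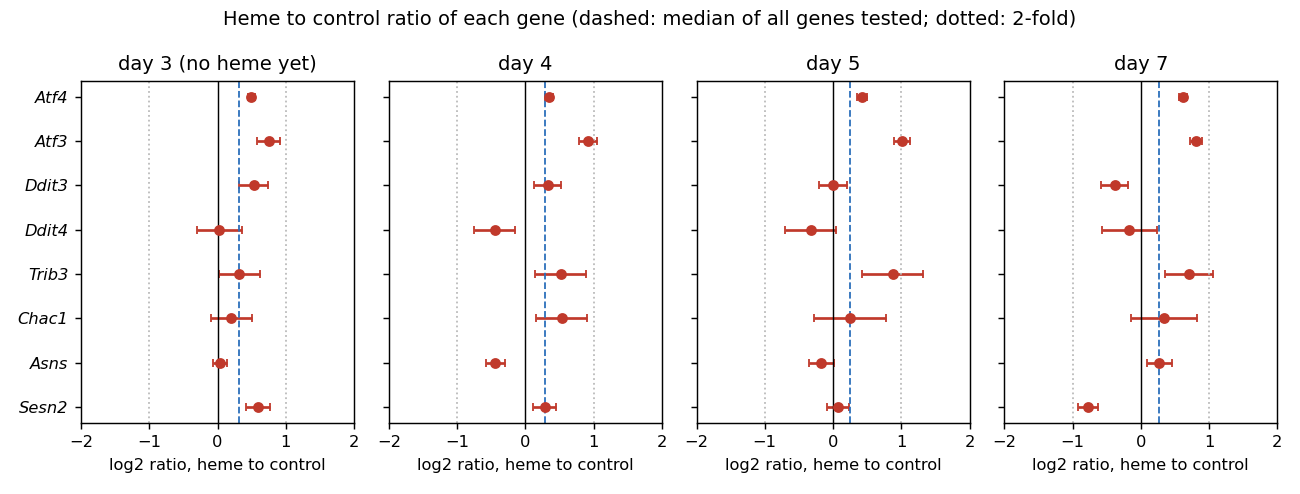
Log2 ratio of the heme to the control level of each gene on days 3, 4, 5 and 7, with exact 95% counting intervals as bars. The dashed line marks the median of all genes tested and the dotted lines mark 2-fold. On day 3, before heme, no gene lies left of 0 with its whole interval, and on day 7 Sesn2 and Ddit3 do.

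Taken net of day 3, that is, with the log2 ratio of day 3 subtracted, the median of the 8 members was -0.18 on day 4, -0.14 on day 5 and 0.09 on day 7, beside -0.06, -0.05 and 0.00 for all genes. The direction on day 4 turned without the upper limit on genes, where the median of the members was 0.12. Net of day 3, 0 of 8 members were at least 2-fold higher on day 4, against 2.26% of 12271 genes, on day 5, against 3.11% of 12167, and on day 7, against 7.03% of 12249. In the other direction, 0 of 8 members were at least 2-fold lower on day 4, against 3.07%, and on day 5, against 5.51%, and 1 of 8 on day 7 (Sesn2), against 8.94%.

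Atf4 (chromosome 15, 80255184 to 80257541, plus strand, GRCm38) encodes the central transcription factor of the response. On days 0, 3, 4, 5 and 7 its level in the control library was 112, 169.6, 133, 119 and 112 CPM. In the heme library it was 171, 239, 169, 159.7 and 172 CPM on the same days. The heme level was higher on all 5 days, by 1.53-fold on day 0 and by 1.41-fold on day 3 (interval 1.36 to 1.46), when no heme had been added. After addition the ratio was 1.27 (1.22 to 1.33) on day 4, 1.34 (1.27 to 1.41) on day 5 and 1.53 (1.47 to 1.60) on day 7. Relative to the median of all genes, the log2 ratio was 0.06 on day 4 and 0.35 on day 7. Both libraries had their highest Atf4 level on day 3, and the 10 levels spanned 2.14-fold, with overlapping intervals in 6 of 9 pairs of neighbours in their order.

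Atf3 (chromosome 1, 191170296 to 191218039, minus strand) encodes a stress-induced factor of the ATF and CREB family that is also induced by inflammatory signals in macrophages. In the control library its level was 2.04, 14.6, 27.1, 40.8 and 60.2 CPM, again on days 0, 3, 4, 5 and 7. In the heme library it was 5.44, 24.5, 51.3, 82.1 and 106 CPM. Atf3 had the widest span of the 8 genes, 51.9-fold between the lowest and the highest culture, and its level was higher with each later day in both libraries. The heme level exceeded the control level 1.68-fold (1.49 to 1.90) on day 3 already, 1.89-fold (1.73 to 2.07) on day 4, 2.01-fold (1.86 to 2.17) on day 5 and 1.76-fold (1.66 to 1.86) on day 7. Net of day 3, the log2 difference was 0.17 (-0.04 to 0.38) on day 4, 0.26 (0.05 to 0.46) on day 5 and 0.06 (-0.13 to 0.25) on day 7. Without the upper limit on genes, and with the other limits kept, its log2 ratio was 0.65 on day 3, 1.72 on day 4 and 1.78 on day 5.

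Ddit3 (chromosome 10, 127290774 to 127296288, plus strand) encodes CHOP, a factor that ATF4 induces under lasting stress and that promotes cell death. The matrices list Ddit3 under 2 identifiers, and the one at an overlapping locus held 0 UMIs in all cells, so the other was used. The control library had 31.4, 10.3, 15.0, 17.3 and 16.6 CPM on the 5 days. The heme library had 22.4, 14.9, 18.8, 17.2 and 12.8 CPM. Heme cultures were higher on day 3 (ratio 1.44, 1.25 to 1.67) and day 4 (1.25, 1.10 to 1.43), about level on day 5 (ratio 1.00, 0.86 to 1.15), and lower on day 7 (0.77, 0.67 to 0.88). Net of day 3, the log2 difference was -0.53 (-0.82 to -0.24) on day 5 and -0.91 (-1.19 to -0.62) on day 7. The highest level of both libraries was that of day 0, and all 9 pairs of neighbours in the order of the 10 cultures had overlapping intervals.

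**Figure D2:**
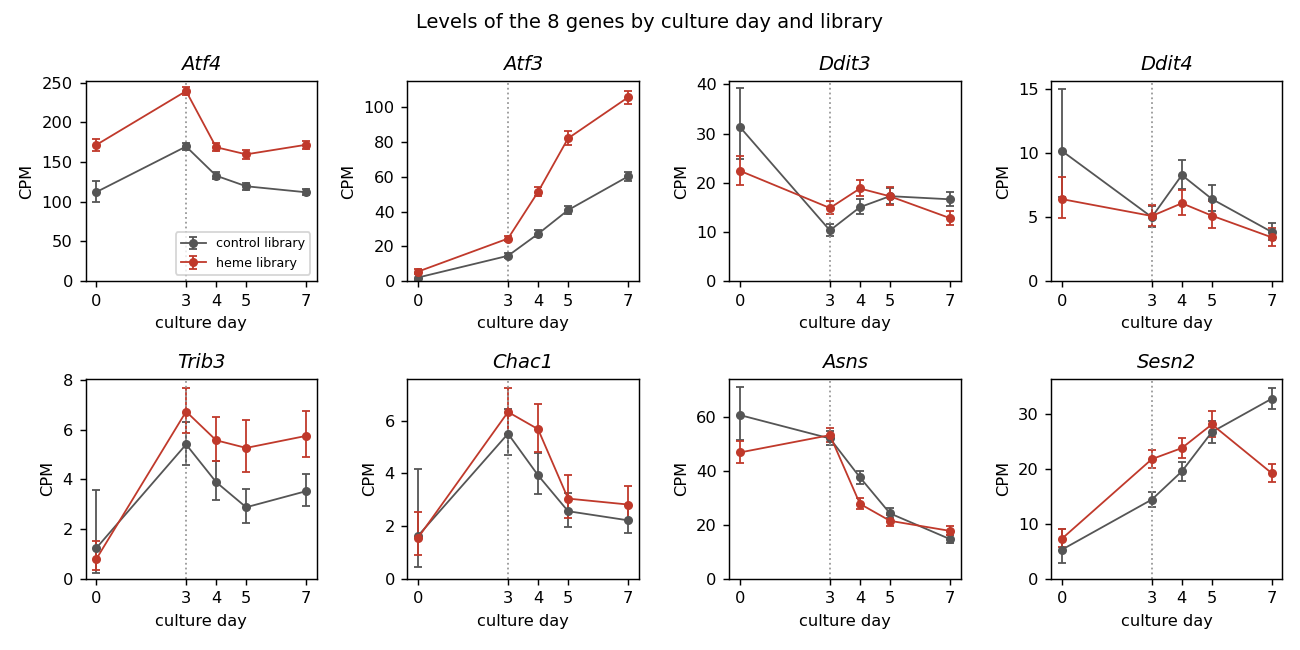
Level of each gene in CPM (y axis, from 0) by culture day (x axis) in the control library (grey) and the heme library (red). Bars are exact 95% counting intervals and the dotted line marks day 3, when heme or albumin was added. Atf3 and Asns differ more between days than between libraries, and the Sesn2 curves cross between day 5 and day 7.

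Trib3 (chromosome 2, 152337422 to 152344032, minus strand) encodes a pseudokinase that is induced by ATF4 and CHOP and restrains both. It was rare, at 1.22, 5.41, 3.89, 2.88 and 3.53 CPM on days 0, 3, 4, 5 and 7 in the control library, and at 0.78, 6.73, 5.57, 5.27 and 5.75 CPM in the heme library. On days 4, 5 and 7 all 3 heme levels exceeded the 3 control levels. The ratio was 1.24 (1.01 to 1.54) on day 3, where TMM scaling turned its direction, 1.43 (1.11 to 1.86) on day 4, 1.83 (1.34 to 2.50) on day 5 and 1.63 (1.27 to 2.09) on day 7. Net of day 3, the interval excluded 0 on day 5, with 0.56 (0.03 to 1.08), and included it on day 4 and day 7.

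Chac1 (chromosome 2, 119351229 to 119354381, plus strand) encodes an enzyme that degrades glutathione. It had 1.63, 5.51, 3.93, 2.57 and 2.22 CPM in the control library and 1.55, 6.33, 5.68, 3.05 and 2.82 CPM in the heme library. The day 3 level was the highest of both libraries. The interval of the ratio excluded 1 on day 4, with 1.45 (1.12 to 1.87), and held 1 on the other days after day 0, with 1.15 (0.93 to 1.42) on day 3, 1.19 (0.82 to 1.71) on day 5 and 1.27 (0.91 to 1.78) on day 7. At 59 to 208 UMIs a culture after day 0, a difference of the size seen on day 5 was not detectable at this depth.

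Asns (chromosome 6, 7675169 to 7693254, minus strand) encodes asparagine synthetase, an amino acid supply gene that ATF4 controls. Its level was lower with each later day in the control library, at 60.7, 52.0, 37.6, 24.2 and 14.7 CPM. In the heme library it was 46.8, 53.2, 27.8, 21.5 and 17.7 CPM. The ratio was 1.02 (0.95 to 1.10) on day 3, 0.74 (0.67 to 0.81) on day 4, 0.89 (0.78 to 1.01) on day 5 and 1.21 (1.06 to 1.37) on day 7. Net of day 3, heme cultures were lower by 0.47 on the log2 scale on day 4 (-0.47, interval -0.64 to -0.30) and higher by 0.24 (0.03 to 0.45) on day 7. The time course was larger than any of these differences, with a log2 change from day 3 to day 7 of -1.82 in the control and -1.58 in the heme library.

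Sesn2 and Ddit4 encode restraints of the growth kinase mTORC1. Sesn2 (chromosome 4, 132492032 to 132510501, minus strand) had 5.29, 14.4, 19.6, 26.8 and 32.8 CPM in the control library, and 7.28, 21.8, 23.8, 28.1 and 19.2 CPM in the heme library. The heme level was higher on day 3 (ratio 1.51, 1.34 to 1.71) and day 4 (1.22, 1.08 to 1.37), about level on day 5 (1.05, 0.94 to 1.18), and lower on day 7 (0.59, 0.53 to 0.65). Net of day 3, Sesn2 was the member with the largest difference, at -1.37 (-1.60 to -1.14) on the log2 scale on day 7, and its interval lay below 0 on days 4 and 5 as well. The control library had a log2 change from day 3 to day 7 of 1.19, and the heme library of -0.18. The higher day 4 levels of Sesn2 and Ddit3 and the higher day 7 level of Asns were close to the shift of all genes, since relative to the median of all genes these log2 ratios were -0.00076, 0.04 and 0.0019.

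Ddit4 (chromosome 10, 59949669 to 59951834, minus strand) encodes REDD1, which stress and glucocorticoids induce. It had 10.2, 5.00, 8.29, 6.42 and 3.83 CPM in the control library, and 6.41, 5.09, 6.08, 5.11 and 3.41 CPM in the heme library. The ratio was 1.02 (0.81 to 1.28) on day 3, 0.73 (0.60 to 0.90) on day 4, 0.80 (0.61 to 1.03) on day 5 and 0.89 (0.67 to 1.18) on day 7. The heme library was thus lower after day 3 in each pair of cultures, with an interval below 1 on day 4 alone.

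The ATF4 binding site in its target promoters is known as the C/EBP-ATF response element. RefSeq start sites (GRCm38.p6) were found for all 8 members, and the 250 bases before each start were searched on both strands for TGATGNAA and for the related TGACGNAA, which differs in 1 letter, so that no stretch matches both. TGATGNAA occurred in 3 of the 8 members (Atf3, Chac1 and Asns), against 3.45% of 32851 promoters, and TGACGNAA in 2 (Atf3 and Chac1), against 1.39%. The stretches around the matches are shown because these 3 genes hold the same letters, while Atf3 was highest in other clusters than Asns and Chac1, as described further on. They are written 5′ to 3′ along the gene, with the match in capitals. A match on the opposite strand appears as its reverse complement. For Atf3 and Asns the RefSeq start used differs from the gene end given above. Their stretches therefore lie inside the gene coordinates given above.
Atf3, TGATGNAA on the opposite strand, 110 bases before the start, chr1:191183420-191183459: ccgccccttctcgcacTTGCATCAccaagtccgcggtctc
Atf3, TGACGNAA on the opposite strand, 10 bases before the start, chr1:191183334-191183359: gaagctattaatagcaTTACGTCAgc
Chac1, TGATGNAA on the opposite strand, 193 bases before the start, chr2:119351033-119351072: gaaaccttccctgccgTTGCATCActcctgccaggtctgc
Chac1, TGACGNAA on the same strand, 250 bases before the start, chr2:119350992-119351015: TGACGCAAtctgactcgcccttgc
Asns, TGATGNAA on the same strand, 23 bases before the start, chr6:7693210-7693248: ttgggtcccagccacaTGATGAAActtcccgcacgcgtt
For Atf4, Ddit3, Ddit4, Trib3 and Sesn2 these letters were not in the window, which says nothing of binding elsewhere.

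The kept cells were partitioned into 25 clusters without the members and without the pathway genes named further on, and a cluster was given a cell type name only where fixed markers supported it. Of the 25 clusters, 16 were mainly of 1 library, with a heme share under 10% or over 90%, and 9 were mixed. Of the neutrophil-like clusters, 1, 7 and 10 were mainly control (heme share 2.38% to 7.48%) and 11, 13, 14 and 20 mainly heme (96.9% to 98.4%). The macrophage-like cluster 24, led by Marco, Hmox1 and Spic, was 99.8% heme. The neutrophil-like share of kept cells on days 3, 4, 5 and 7 was 40.1%, 57.2%, 28.3% and 0.93% in control and 41.1%, 76.6%, 66.0% and 29.7% in heme. These shares leave out the unnamed clusters 9 and 18. The neutrophil list had the most markers raised there, 1 in cluster 9 and 7 in cluster 18. Cluster 9 held 658 control and 17 heme cells on day 5, and 431 and 11 on day 7. Cluster 18 held 75 and 34, then 13 and 9. Both clusters count among the cells outside the neutrophil-like class. Dendritic cell-like cells made up 17.0% of the day 7 control and 1.84% of the day 7 heme culture. Macrophage-like cells made up 54.4% of the day 7 heme culture and 0 of 2568 cells in control, which allows a share of up to 0.117%. Of 8 marker lists, the summed macrophage markers reached 1411 CPM in heme and 697 CPM in control on day 7, and the summed neutrophil markers 31477 and 5147 CPM.

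**Figure D3:**
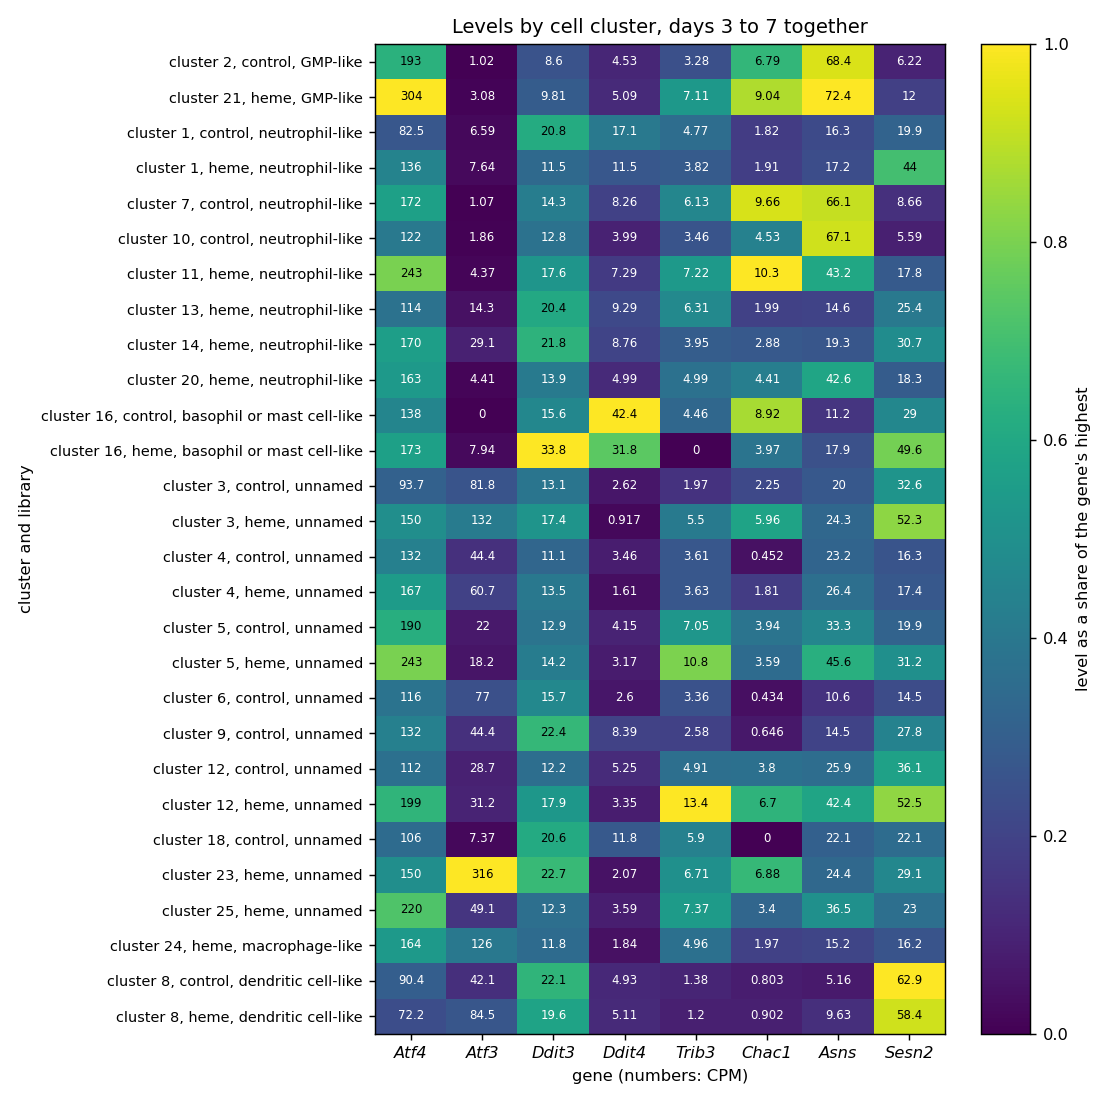
Level of the 8 genes (columns, numbers in CPM) in each cluster and library with at least 50 cells (rows) on days 3 to 7, coloured as a share of the highest level of the gene. Asns and Chac1 are highest among progenitor-like and early neutrophil-like clusters, Atf3 in heme cluster 23, Sesn2 in the dendritic cell-like cluster 8 and Ddit4 in the basophil or mast cell-like cluster 16.

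The members were used in different cells. Over days 3 to 7, Asns was highest in the granulocyte-monocyte progenitor-like clusters, at 68.4 CPM in control cluster 2 and 72.4 CPM in heme cluster 21, and in the neutrophil-like clusters 7 (66.1 CPM) and 10 (67.1 CPM) of the control. It was lowest in the dendritic cell-like cluster 8, at 5.16 CPM in control and 9.63 CPM in heme. Atf4 was highest in the progenitor-like cluster 21 (304 CPM, heme), and Chac1 in the neutrophil-like clusters 11 (10.3 CPM, heme) and 7 (9.66 CPM, control). Atf3 was low in the progenitor-like clusters, with 1.02 CPM in control cluster 2 and 3.08 CPM in heme cluster 21, against 126 CPM in the macrophage-like cluster 24. It was at 81.8 and 77.0 CPM in the unnamed clusters 3 and 6 of the control.

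The highest Atf3 level, 316 CPM (interval 302 to 331), was that of cluster 23, which stayed without a name and was led by Mt3, Ppbp and Cd36. This cluster was 98.4% heme, with 111 of its cells from day 4, and there Atf3 was at 332 CPM, Ddit3 at 37.9, Chac1 at 11.2 and Trib3 at 13.1 CPM. On day 7 the same cluster had 220.5 CPM of Atf3, 4.1 CPM of Ddit3, 3.3 CPM of Chac1 and 2.5 CPM of Trib3, in 66 cells. Sesn2 was highest in the dendritic cell-like cluster 8, at 62.9 CPM in control and 58.4 CPM in heme. Ddit4 was highest in the basophil or mast cell-like cluster 16, at 42.4 and 31.8 CPM, from 65 and 61 cells.

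On day 4, the ratios of Atf3 and Atf4 had intervals above 1 both inside and outside the neutrophil-like cells. For Atf4 they were 1.27 (1.19 to 1.35) and 1.37 (1.28 to 1.46). Relative to the median of all genes in the same cells, the log2 ratio of Atf4 was -0.16 inside and 0.16 outside. The intervals of Chac1, Trib3 and Ddit3 lay above 1 outside and held 1 inside. The difference between the classes was not tested. Among the 580 heme and 899 control cells outside that class, Chac1 was at 6.49 against 2.00 CPM, a ratio of 3.24 (2.04 to 5.26), and Trib3 at 6.17 against 2.44 CPM, a ratio of 2.54 (1.63 to 3.99). These heme levels were uneven between clusters. Clusters 23 (111 cells), 21 (94 cells) and 24 (168 cells) had 11.2, 11.05 and 2.21 CPM of Chac1. In the same order, they had 13.1, 8.15 and 0.74 CPM of Trib3. The values of the macrophage-like cluster 24 rest on 6 UMIs of Chac1 and 2 UMIs of Trib3. Atf3 was at 131 against 47.9 CPM there (ratio 2.74, 2.49 to 3.02) and Ddit3 at 21.8 against 12.7 CPM (ratio 1.72, 1.40 to 2.12). In these cells 3 of 8 members were at least 2-fold higher, against 10.7% of 11797 genes, and 0 of 8 at least 2-fold lower, against 2.10%.

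Among the 1901 heme and 1200 control neutrophil-like cells of day 4, Chac1 was at 5.26 against 6.17 CPM (ratio 0.85, 0.62 to 1.17), Trib3 at 5.26 against 5.59 CPM (0.94, 0.68 to 1.31) and Ddit3 at 17.3 against 17.8 CPM (0.97, 0.81 to 1.16). Among the other members, Asns was lower, at 22.9 against 44.7 CPM (0.51, 0.45 to 0.58), and Ddit4 too, at 7.86 against 13.02 CPM (0.60, 0.48 to 0.76). Sesn2 was higher, at 22.4 against 13.5 CPM (1.66, 1.38 to 2.00), and Atf3 at 9.64 against 2.92 CPM (3.30, 2.28 to 4.89). Here 1 of 8 members (Atf3) was at least 2-fold higher, against 17.6% of 11167 genes, and 0 of 8 at least 2-fold lower, against 0.824%. The median log2 ratio of all genes was 0.50 in the neutrophil-like and 0.29 in the other cells, and relative to it Chac1 stood at -0.73 and 1.40, Trib3 at -0.59 and 1.05.

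**Figure D4:**
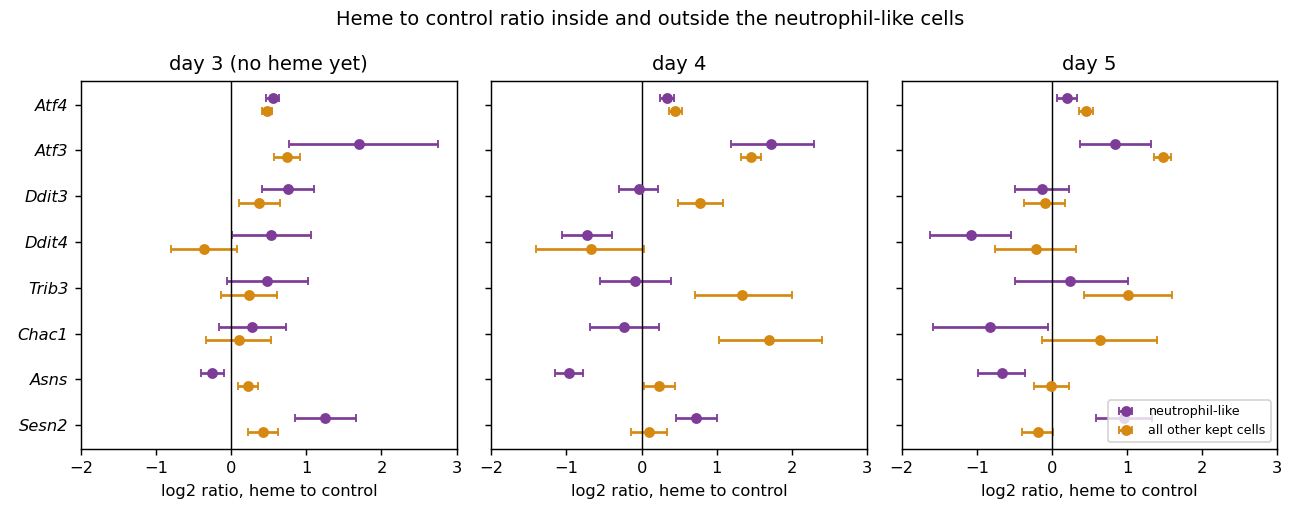
Log2 ratio of the heme to the control level of each gene in neutrophil-like cells (purple) and in all other kept cells (orange) on days 3, 4 and 5, with exact 95% counting intervals. On day 4, Ddit3, Trib3 and Chac1 lie above 0 in the other cells, and their neutrophil-like intervals hold 0.

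On day 3, before heme, the corresponding ratios outside the neutrophil-like class were 1.07 (0.79 to 1.44) for Chac1, 1.18 (0.91 to 1.53) for Trib3 and 1.30 (1.08 to 1.57) for Ddit3. On day 5 they were 1.56 (0.91 to 2.63), 2.02 (1.34 to 3.04) and 0.93 (0.77 to 1.13), so that of these 3 genes Trib3 alone had an interval above 1. The cells outside the class were not of the same kind in both libraries. On day 4 they lay mainly in clusters 3, 5, 9 and 4 of the control and in the macrophage-like cluster 24, cluster 23 and the progenitor-like cluster 21 of the heme library, and the part of this make-up in the ratios cannot be told apart from a change within cells.

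The few types present in both libraries gave wide intervals. In progenitor-like cells of day 4 (96 heme and 81 control cells, mainly of clusters 21 and 2), Trib3 was at 8.00 against 2.24 CPM, a ratio of 3.57 (1.12 to 14.9), and Chac1 at 10.9 against 5.04 CPM, a ratio of 2.15 (0.93 to 5.40). On day 3 the same class had a Trib3 ratio of 1.87 (1.12 to 3.19), a Chac1 ratio of 1.08 (0.73 to 1.59) and an Atf4 ratio of 1.62 (1.51 to 1.73). In dendritic cell-like cells, all of cluster 8, Atf3 was at 66.2 against 25.8 CPM on day 4 (2.56, 1.47 to 4.70), 83.6 against 23.4 CPM on day 5 (3.58, 2.60 to 4.99) and 144 against 52.3 CPM on day 7 (2.75, 2.11 to 3.54). Sesn2 in the same cells was at 62.0 against 57.6 CPM on day 5 (1.08, 0.82 to 1.40). On day 7 it was at 38.7 against 66.8 CPM (0.58, 0.35 to 0.90), from 37 heme and 437 control cells. The median log2 ratio of all genes was 0.32 in the progenitor-like cells on days 3 and 4. In the dendritic cell-like cells it was 0.21, 0.28 and 0.29 on days 4, 5 and 7.

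In neutrophil-like cells the libraries differed before heme. On day 3, Sesn2 was at 17.4 CPM in heme and 7.33 CPM in control (ratio 2.37, 1.80 to 3.15), and Ddit3 at 18.4 and 10.9 CPM (1.68, 1.33 to 2.15). The day 5 ratio of Sesn2 was 1.94 (1.50 to 2.52), and the Asns ratio, given above for day 4, was 0.84 (0.75 to 0.93) on day 3 and 0.63 (0.51 to 0.78) on day 5. The Ddit4 ratio was 1.44 (1.01 to 2.09) on day 3 and 0.47 (0.32 to 0.69) on day 5.

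Low levels of Atf3 have to be read against free RNA, which droplets take up from the medium. In the day 0 heme cells, Marco and Spic, genes of macrophages, stood at 6.55% and 6.49% of their mean over the kept heme cells. No such estimate was made for the control library. The same share of the heme mean of Atf3 (57.4 CPM) is 3.74 CPM, near the 5.44 CPM of the day 0 heme culture, the 3.98 CPM of the day 3 neutrophil-like cells and the 3.40 CPM of the day 3 progenitor-like cells. The Atf3 ratios of 3.26 (1.70 to 6.76) and 3.24 (1.38 to 8.79) in these day 3 cells rest on such low levels, and the part of free RNA in them was not tested. On day 4, the neutrophil-like cells had 9.64 CPM of Atf3 in heme and 2.92 CPM in control, beside this 3.74 CPM. The part of free RNA in that ratio was not tested either. For Trib3, Chac1 and Ddit4 that share gave 0.36, 0.29 and 0.33 CPM, under their level in every heme culture.

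Counted by cells and thinned to 4000 UMIs each, Atf3 had a UMI in 4.28% of control cells (interval 3.40% to 5.31%) and 6.10% of heme cells on day 3, and in 18.1% and 26.5% on day 7. Unthinned, the day 7 shares were 34.3% and 47.3%, at medians of 12171 and 13627 UMIs a cell. Cells with fewer than 4000 UMIs were left out, 38 control and 57 heme cells on day 3, and 267 and 184 on day 7. In progenitor-like cells, taken as the background, the thinned share was 0.22% in control and 1.12% in heme, and in macrophage-like heme cells 33.8%. Trib3 had a UMI in 1.84% of control and 2.46% of heme cells on day 3, and in 1.09% and 2.19% on day 7. Cells with a UMI of 4 or more of the 8 members at this depth were rare, at 0 of 1899 control cells on day 4, which allows a share of up to 0.158%, and at 14 of 2213 heme cells (0.63%, 0.35% to 1.06%). On day 3, before heme, such cells made up 0.11% of control and 0.33% of heme cells, on day 5 0.43% and 0.95%, and on day 7 0.48% and 0.49%, so that the shares were near each other on the last day. The thinned cells had a UMI of 0.72 members on average in control and of 0.83 in heme on day 4.

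The rest of the pathway was read from lists. The counts below stand against all genes, of which 8.03%, 9.65%, 9.10% and 14.4% were at least 2-fold higher on days 3, 4, 5 and 7, and 0.523%, 2.92%, 3.75% and 7.26% at least 2-fold lower. Of the 8 kinases and relays, 0 were at least 2-fold higher or lower on any day, with a median log2 ratio of 0.42 on day 3 and 0.46 on day 7. Eif2ak1, which encodes the heme-regulated kinase HRI, was at 26.8 against 20.1 CPM on day 3 (ratio 1.33, 1.20 to 1.48), 25.0 against 19.3 CPM on day 4 (1.29, 1.15 to 1.46) and 25.6 against 21.1 CPM on day 7 (1.21, 1.09 to 1.35). Relative to all genes its log2 ratio was 0.10, 0.09 and 0.01 on those days. Eif2ak2, the kinase PKR that senses double-stranded RNA, had a ratio of 1.41 on day 3 and of 1.00 (0.91 to 1.09) on day 7. Eif2ak3, the kinase PERK of the endoplasmic reticulum, had 1.15 on day 3 and 1.36 (1.17 to 1.58) on day 7, and Eif2ak4, the amino acid sensor GCN2, 1.14 and 1.44 (1.25 to 1.66). Nck1, Gcn1 and Dele1, which act with these kinases, had day 7 ratios of 1.56, 1.40 and 1.39.

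Of the 12 genes of eIF2 and its phosphatase, 0 passed 2-fold on any day, and the median log2 ratio was between -0.16 (day 5) and 0.01 (day 3). Ppp1r15a, which encodes the stress-induced phosphatase subunit GADD34, was at 9.78 against 5.54 CPM on day 3 (ratio 1.76, 1.46 to 2.14) and at 19.9 against 25.4 CPM on day 7 (0.78, 0.70 to 0.88). Ppp1r15b, the constitutive subunit, had a ratio of 1.71 on day 3 and 1.87 (1.74 to 2.00) on day 7. Eif2b5 had 1.61 and Eif2b2 had 0.80 on day 7.

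**Figure D5:**
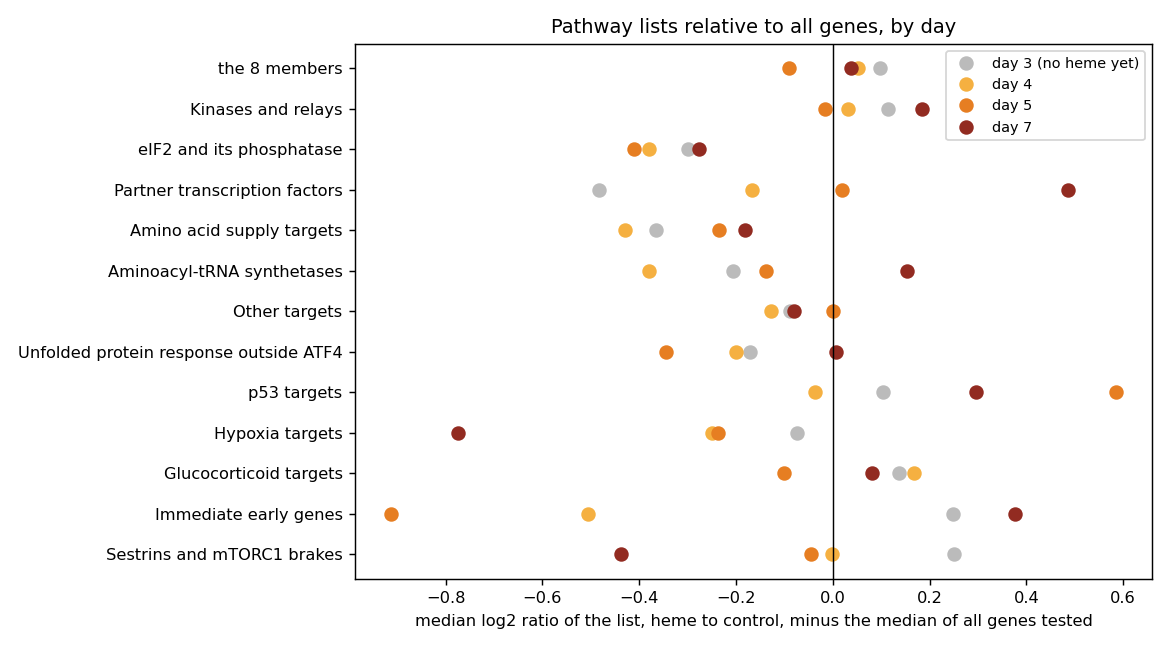
Median log2 ratio of the 8 members and of 12 pathway lists (rows) minus the median of all genes tested on the same day (x axis), by day (colours). Among the kept cells the members stay within 0.10 of all genes on each day, and the hypoxia targets lie farthest below on day 7, at -0.77. The immediate early genes lie lower still on day 5, at -0.91.

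Larger ratios were found in single genes of the target lists. Of 18 amino acid supply targets, 2 were at least 2-fold higher on day 4 and 3 on day 7, and 1 and 2 were at least 2-fold lower. The median of the list was below that of all genes on every day, with log2 differences of -0.37, -0.43, -0.24 and -0.18 for days 3, 4, 5 and 7, and on the last of these 11 of 18 genes lay below it. Slc7a11, a cystine transporter gene that the oxidant sensor NRF2 controls as well, was at 652 against 119 CPM on day 4 (ratio 5.48, 5.27 to 5.69) and 495 against 118 CPM on day 7 (4.20, 4.05 to 4.35), with 2.18 on day 3. Slc6a9, a glycine transporter, was at 3.56 against 0.15 CPM on day 7 (23.4, 9.70 to 73.8), with 1.92 on day 3. Got1 was at 13.7 against 46.0 CPM (0.30, 0.27 to 0.33) and Slc1a4 at 0.48 against 2.71 CPM (0.18, 0.09 to 0.32) on day 7.

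Of 13 genes that ATF4 also controls, those of aminoacyl-tRNA synthetases and of the tRNA export factor Xpot, 0 passed 2-fold on days 3, 4 and 5. On day 7, 1 did so, and it was Xpot. Before heme, 12 of 13 lay below the median of all genes already, and after it all 13, then 11 and then 5 of them did on days 4, 5 and 7. Xpot was at 48.2 against 23.9 CPM on day 7 (ratio 2.02, 1.84 to 2.21), Tars at 1.64 and Aars at 1.46 times the control, and Wars at 0.61 times (0.54 to 0.69).

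Of 16 further targets, 14 had 20 UMIs on day 7, and 4 were at least 2-fold higher and 1 lower. The list median stood at -0.08 relative to all genes on day 7, with 7 of 14 genes below it, and at -0.09 on day 3. Gdf15, a secreted stress cytokine, was at 5.10 CPM in control and 6.06 CPM in heme on day 3, at 3.85 and 13.3 CPM on day 4 (ratio 3.46, 2.77 to 4.36), at 13.8 and 18.0 CPM on day 5, and at 11.7 and 58.0 CPM on day 7 (4.96, 4.43 to 5.56). Sqstm1, an autophagy adaptor and likewise a known NRF2 target, had ratios of 1.53 on day 3, 2.83 on day 4 and 3.94 on day 7, and Tnfrsf10b, a death receptor gene that CHOP controls, 1.14, 2.29 and 2.76. Vegfa was at 7.46 against 45.3 CPM on day 7 (0.16, 0.14 to 0.19).

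Of 10 partner transcription factors, 2 were at least 2-fold higher and 1 lower on day 7. Atf5, whose mRNA is translated under stress like that of Atf4, had a ratio of 0.95 (0.85 to 1.06) on day 3 and was at 41.7 against 10.4 CPM on day 7 (4.01, 3.55 to 4.54). Fosl1 was at 8.28 against 1.03 CPM (8.00, 5.56 to 11.8), Nupr1 at 1.93 times the control after 0.68 times on day 3, and Batf3, a dendritic cell factor, at 0.47 times (0.44 to 0.50) on day 7.

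Of 16 unfolded protein response genes outside ATF4, 1 was at least 2-fold lower on each of the 4 days, Sdf2l1, with ratios of 0.45 on day 3 and 0.44 on day 7. On day 7 Dnajb9 was 2.31-fold (2.08 to 2.55), Atf6 1.87-fold and Pdia4 1.67-fold higher. Of 10 targets of p53, a factor that also controls Sesn2 and Tnfrsf10b, 1 was at least 2-fold higher on days 3 and 4, 4 on day 5 and 2 on day 7. Relative to all genes, the median of the p53 list was 0.10, -0.04, 0.59 and 0.30 on these days. Between day 3 and day 7 the ratio of Trp53inp1 was 2.30 and then 2.73, Perp 1.25 and 8.13, Zmat3 1.38 and 1.78, and Mdm2 1.72 and 1.75.

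Of 10 hypoxia targets, 0 were higher and 2 were lower by 2-fold on day 7, and all 10 lay below the median of all genes. Ankrd37 had a ratio of 0.30 (0.27 to 0.34), Egln3 0.43, Ero1l 0.58 and Ldha 0.58 on day 7, with 0.91, 1.39, 1.44 and 0.76 on day 3. Of 5 measured glucocorticoid targets, 1 was at least 2-fold higher on day 7, Dusp1 (2.04, with 2.19 on day 3), beside Fkbp5 (1.85), Klf9 (0.66) and Tsc22d3 (1.28). Of 12 immediate early genes, 2 were at least 2-fold higher on day 7. Fos was at 61.8 against 14.8 CPM (4.19, 3.78 to 4.64) after 1.60 on day 3. Dusp1 was as above, Jun at 1.92 and Jund at 0.51 times the control. Relative to all genes, the median of this list was 0.25, -0.51, -0.91 and 0.38 on days 3, 4, 5 and 7. On day 4, 10 of 12 lay below the median of all genes. On day 5, 9 of 12 did, and 2 were at least 2-fold lower. Of 11 sestrins and mTORC1 brakes, which include Sesn2 and Ddit4, 0 passed 2-fold on day 7, where Ddit4l had 0.51 (0.27 to 0.91), Castor1 0.62 and Tsc2 1.52 (1.32 to 1.74).

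Over the 10 cultures, the genes most alike to each member in log2(CPM + 1) were, among 7850 genes with 20 CPM in at least 1 culture, Chml, Mfsd13a and Sec22b for Atf4 (Pearson r 0.99, 0.95 and 0.94), and Nek6, Ccdc71l and Slc6a6 for Atf3 (each 0.99). For Ddit3 they were Hbb-bt, Hba-a2 and Car2 (0.94, 0.93 and 0.93), which are abundant in erythroid cells, and for Ddit4 Smim14, Ier2 and Hdc (0.90, 0.88 and 0.86). Asns was most alike to Nkg7, Rrm2 and Fbxo5 (each 0.98), of which the last 2 act in the cell cycle, and the genes given for Sesn2 are Malt1 and Tes (each 0.99). Trib3 was most alike to Ptpn1, Pde8a and Edem1 (0.97, 0.97 and 0.96), and Chac1 to Rinl, Cep19 and Gca (0.97, 0.96 and 0.95). These values describe 10 points from 2 libraries that share their days and their cell make-up.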

How the data were processed

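The deposited values are UMI counts, unnormalized, that the authors obtained from 3′ libraries with Cell Ranger (4.0.0 per the labels, 5.0.0 per the file headers) on GRCm38.p6, and the deposited hashtag calls are text made by the authors with Seurat 3.2.3. R 4.4 and Scanpy 1.6.0 are also named in the submitters' processing notes. Barcodes with 1 hashtag were kept under the limits given in the report, with 83 ribosomal protein genes taken by symbol. Barcodes with several hashtags were left out, and no doublet caller was run. Counts were summed per library and hashtag day, 10 cultures in all.

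The members and the lists were chosen with earlier results of these data known. A gene entered the background with 20 UMIs in both cultures together, and was counted as called at 2-fold. Ratio intervals are exact conditional binomial (Clopper-Pearson), level intervals exact Poisson, and intervals of differences net of day 3 use the normal approximation on the log scale. A count of 0 allows up to 3 counts. Intervals and limits cover counting error only. Fold calls and intervals were tested on simulated data. No test between groups was run, since each group is 1 library.

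Clusters were made in scanpy 1.11.5 (2000 variable genes, 15 components, 15 neighbours, Leiden resolution 1, igraph 0.11.9). A cluster was named from the marker lists where 3 or more were raised at least 2-fold in CPM + 10, with at least 1 among its 10 leading genes and at least 2 times as many as of the next list. The clusters were known when these limits were chosen, and 11 clusters stayed unnamed. The split into neutrophil-like and other cells was added after values had been seen. Named genes were all members, the 3 genes most alike to each, and of each list the 4 with the largest day 7 log2 ratio, plus the 4 kinases; 1 gene that this rule named is not reported here. Alternatives used edgeR 4.0.16 and DESeq2 1.42.0 for scaling factors only. Ages, agents and doses are those of the labels, and culture days are used because the sources give the exposure of the day 5 cultures in 2 ways.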

Additional observations from a re-analysis of the deposited data

Results flagged for a closer look

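For Sesn2, Asns and Ddit3, the heme to control ratio had an interval above 1 on one day after heme and below 1 on another; these differences between days were not tested. The intervals above 1 depend on the scaling: with TMM factors the log2 ratio was 0.0009 for Sesn2 on day 4, 0.02 for Asns on day 7 and 0.04 for Ddit3 on day 4, and with DESeq2 size factors 0.05, 0.03 and 0.09. The log2 ratio of Sesn2 on day 4 exceeded that of day 7 by 1.06, with 1.22-fold and 0.59-fold of the control. For Ddit3 the day 4 value exceeded the day 7 value by 0.70, and for Asns the day 7 value exceeded the day 4 value by 0.71. The share of dendritic cell-like cells, where Sesn2 was highest, was 2.02% in heme and 2.05% in control on day 4, and 1.84% and 17.0% on day 7. Its part in the Sesn2 difference was not tested.

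Barcodes to which no hashtag was assigned, 1218 in the heme and 652 in the control library, entered no comparison of the report. In these, Atf3 was at 17.2 against 6.42 CPM, a ratio of 2.67 (1.65 to 4.58), and Atf4 at 188 against 126 CPM, a ratio of 1.49 (1.33 to 1.68). The median log2 ratio of all genes was 0.52 there. Their culture days are unknown.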

How the results depend on the processing

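No paired analysis was possible because each group is 1 library, so that the shared replicate number pairs nothing. Of 398 values of single members under 10 alternatives, 298 stayed within the interval of the value reported, 100 moved beyond it, and none at 2-fold changed direction. Keeping all barcodes with 1 hashtag gave a median log2 ratio of the 8 members of 0.61 on day 4 (0.12 net of day 3), with 2, 2 and 1 members at least 2-fold higher on days 4, 5 and 7, and keeping those with 500 or more genes gave 0.61, 0.12, 2, 2 and 1, as did lifting the limit of 5000 genes alone (0.61, 0.12, 2, 2 and 1). The share of all genes past 2-fold was not counted under these changes of filter. TMM factors gave medians of 0.077 on day 3 and 0.053 on day 4, and DESeq2 size factors 0.14 and 0.10. The count for day 5 was 0 under TMM factors, under DESeq2 size factors and without ribosomal protein and mitochondrial UMIs. TMM and DESeq2 factors lowered all 40 member values, and moved the median of all genes on day 3 from 0.31 to -0.02 and 0.04. The cause of these shifts was not tested. Under scaling, direction turned for Ddit4, Chac1 and Asns on day 3 (TMM and DESeq2), Sesn2 on day 5 (both), and Trib3 on day 3 and Chac1 on day 5 (TMM). Mean CPM over single cells turned Chac1 on day 7, and Asns on days 3 and 5. Day 0 values of Ddit4, Trib3 and Chac1, at 3 to 66 UMIs, turned without the filters, and that of Asns without the limit of 5000 genes. Ddit4 on day 3 and Sesn2 on day 5 turned under these changes of filter too. No cluster was named lymphoid-like, so that alternative left out the erythroid-like cells and the basophils or mast cells by marker. Leaving out shared barcodes and lifting the limit of 5000 genes alone were chosen after seeing the data.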

Other observations

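In single cells thinned to 4000 UMIs, days 3 to 7 together, a Chac1 UMI was found in 4 of 113 control cells with a Trib3 UMI (3.54%, interval 0.97% to 8.82%) and in 1.04% of the other control cells (0.83% to 1.29%). In the heme library it was found in 6 of 187 cells with a Trib3 UMI (3.21%, 1.19% to 6.85%) and in 1.59% of the others (1.32% to 1.90%), so the intervals overlapped in both libraries. The UMIs of Chac1 were the most concentrated, with 38.8% of them in the top 1% of control cells and 31.7% in heme, beside 6.79% and 6.47% for Atf4. The highest number in 1 cell was 50 UMIs, for Atf3 in the heme library.

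The barcodes that carried several hashtags, 1996 in heme and 1259 in control, had an Atf3 ratio of 2.48 (2.33 to 2.63), a Trib3 ratio of 1.64 (1.35 to 2.01) and a Sesn2 ratio of 0.86 (0.79 to 0.94).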
